A study of Sus scrofa with 12 samples.

Results

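The mitochondrial ribosomal protein genes on the array were described in the liver of pigs divergent in residual feed intake (RFI), the difference between the feed a pig eats and the feed predicted from its growth and body measures. The members were chosen by name as the genes whose single symbol in the platform annotation begins with MRPL or MRPS and a number. They comprised 59 genes of the 13755 named on the array, 35 of the large subunit and 24 of the small subunit. These genes were measured by 78 of the 47845 probe sets, and each was represented by its probe set of highest mean. The choice used no comparison between pigs. The reference annotation of the pig holds 77 symbols of this kind, of which 18 were not named on the array and are not analysed here.

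Liver RNA of 12 pigs, the offspring of Large White × Landrace sows and Hylean Maxgro boars, was measured on Affymetrix snowball arrays, each pig on its own array. By the labels, 6 pigs were of low RFI, with 3 males and 3 females, and 6 were of high RFI, with 3 males and 3 females. All pigs had free access to the same finisher diet and were sampled after feeding at day 140, and they were chosen from the extremes of a larger cohort, so the classes are not a random draw. Low RFI stands for high feed efficiency. The paper describes siblings of the same sex that diverged in RFI, but the labels name no litter, so pairs did not enter the comparison. A single pig is given as P with the number from its label.

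Mitochondria keep their own ribosome, which makes the few proteins that the mitochondrial genome still encodes, all of them core parts of the respiratory chain and the ATP synthase. The ribosomal RNAs come from that genome, whereas every protein of both subunits is encoded in the nucleus, made in the cytosol and imported. The small subunit holds the messenger RNA and the decoding center. The large subunit joins the amino acids and releases the new chain near the inner membrane. Part of the proteins have counterparts in bacteria, and part are found only in mitochondria. In liver, a tissue dense in mitochondria, this ribosome serves oxidative energy supply.

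The deposited values are log2 signals, with array medians between 3.48 and 3.53. Differences are low RFI minus high RFI as the labels give the classes. The paper orders the classes in the same way, yet the probe sets it lists have the opposite sign there, so the classes are exchanged between the labels and the paper. Which of them holds could not be settled from the values, and with the classes of the paper each higher or lower given here for low RFI pigs would turn round, while sizes, errors and p-values would stay. Over the whole array, limma without a filter on SD called 15 probe sets at a q-value under 0.30 and 1345 (2.81%) when the high RFI pig P317 was left out, so results were also computed without this pig. The mean over the 8 hepatocyte markers, among them albumin, lay between 12.40 and 12.61 in low RFI pigs and between 12.39 and 12.48 in high RFI pigs, and 0 of them reached an unadjusted p under 0.05. The mean of a pig over the markers of neutrophils, adipocytes or muscle lay between 3.64 and 4.64. Of the markers of other cell types, 1 reached an unadjusted p under 0.05, the Kupffer cell marker CD163 with a difference of 0.68, and its part in the results was not tested. In bulk liver, fewer cells of a type and less RNA per cell cannot be told apart.

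In the comparison of the RFI classes, 0 of the 59 genes were called at a q-value under 0.30 in limma, against 0.0314% of all probe sets and 0.0436% of all named genes. At an unadjusted p under 0.05, the members held 2 genes with a higher and 4 with a lower mean in low RFI pigs, or 10.2%. Of all named genes, 9.13% were past this p, 4.68% as higher and 4.45% as lower, so the members' share lay near that of the array. In 0 of the 59 genes were the classes free of overlap, against 0.378% of all named genes. The differences of single genes were small, from -0.37 to 0.37 on the log2 scale, which is at most 1.29-fold. Their standard errors lay between 0.09 and 0.22 with a median of 0.12, and the 95% interval that reached farthest from 0, in either direction, ended at 0.72.

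Most members nevertheless had a lower mean in the pigs labelled low RFI, a direction that rests on the labels. The difference was below 0 in 46 of the 59 genes (78.0%), against 55.1% of all named genes. Its median was -0.09 over the members, with quartiles of -0.15 and -0.02, and -0.02 over all named genes, with quartiles of -0.12 and 0.09. Among named genes with a mean above the array median, which are more like the members in signal, 56.0% were below 0 and the median was -0.03. The 78 member probe sets gave 61 below 0 and a median of -0.09. The members share pigs and arrays and are not independent of each other, so these counts are a description.

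**Figure D1:**
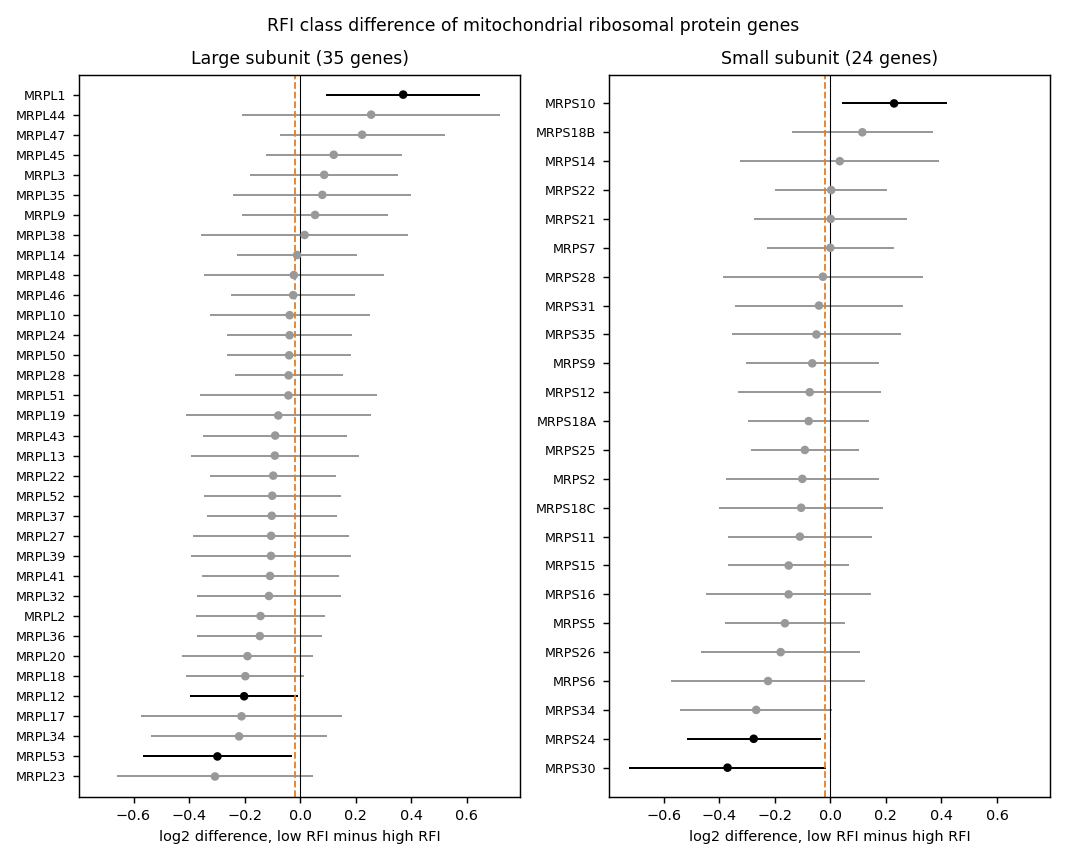
Log2 difference between the RFI classes (low RFI minus high RFI, x axis) for each of the 35 large subunit and 24 small subunit genes, ordered by difference, with points for the estimate and lines for the 95% interval of limma. Black marks the 6 genes at an unadjusted p under 0.05, grey the others, and the dashed line the median of all named genes at -0.02. Most points lie left of 0, between -0.37 and 0.37.

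Averaged over the members, the signal of single pigs showed the same small shift with broad overlap. The mean over the 35 large subunit genes was 5.80 at the lowest, 5.95 at the median and 6.01 at the highest in low RFI pigs, and 5.90, 5.98 and 6.08 in high RFI pigs. For the 24 small subunit genes, it was 6.18, 6.31 and 6.39 in low RFI pigs and 6.25, 6.40 and 6.48 in high RFI pigs. Pig P324, labelled low RFI, had the lowest mean in both subunits, and pig P303, labelled high RFI, the highest. Pig P324 had 12 of the 59 genes above their mean over all pigs, and pig P303 had 44. The other low RFI pigs had 20 to 33 genes above that mean, and the other high RFI pigs 24 to 37, so the classes could not be separated by these counts.

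**Figure D2:**
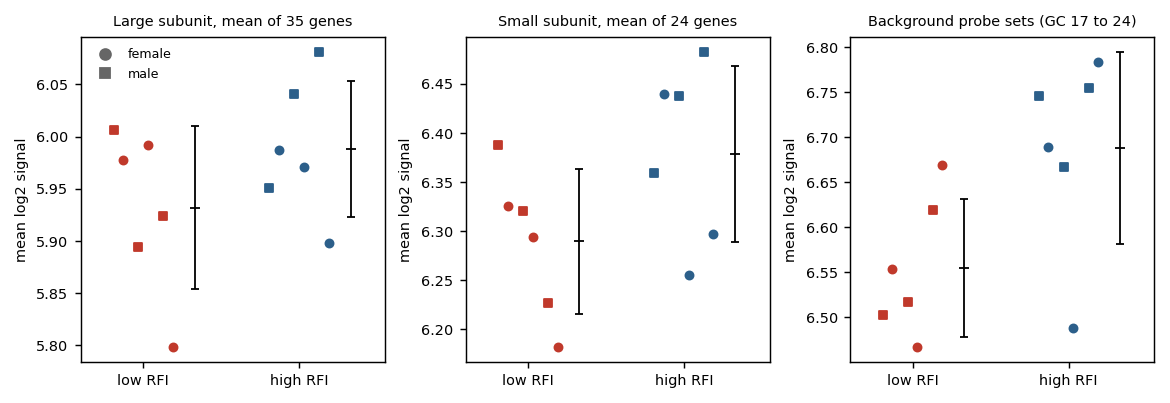
Mean log2 signal of each pig (y axis) over the large subunit genes, the small subunit genes and the GC-rich background (17 to 24 GC), by RFI class (x axis). Squares are males, circles females, and bars the mean ± SD of 6 pigs per class. Pig P324, labelled low RFI, is lowest and pig P303, labelled high RFI, highest in both subunits.

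The array also carries background probe sets sorted by GC content, and the sets at counts of 17 to 24 moved with the class as well. They averaged 6.55 ± 0.08 (SD, n = 6) in low RFI pigs and 6.69 ± 0.11 (SD, n = 6) in high RFI pigs. Background and class thus partly moved together, and a fit that holds both cannot fully tell their parts apart. A larger p in such a fit therefore does not show that background made the difference. With this background as a covariate, a range known from earlier results of these data, 44 of the 59 genes were below 0. The median was then -0.09 in the large subunit and -0.06 in the small subunit. At an unadjusted p under 0.05, 1 member, MRPL9, was then higher and 4 were lower, and of the 6 members past this p without the covariate, MRPL53 and MRPS30 were past it with the covariate. The shares of all named genes under this model were not computed, so these counts have no array share beside them.

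The values of the large and the small subunit lay close together. Of the 35 large subunit genes, 27 were below 0 (77.1%), 1 was higher and 2 were lower at an unadjusted p under 0.05, and the median difference was -0.09. Of the 24 small subunit genes, 19 were below 0 (79.2%), 1 was higher and 2 were lower, and the median difference was -0.08. On the level of pigs, the mean over the large minus the mean over the small subunit was -0.36 ± 0.05 (SD, n = 6) in low RFI pigs and -0.39 ± 0.06 (SD, n = 6) in high RFI pigs, a gap that is under the spread between pigs. As probe sets differ in brightness, the gap between the subunits themselves is not one of transcript amount. MRPS18A and MRPS30 carry small subunit names, yet both proteins sit in the large subunit. Counted there, 29 of 37 large and 17 of 22 small subunit genes were below 0, with medians of -0.09 and -0.08.

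The genes listed with counterparts in bacterial ribosomes and those listed as specific to mitochondria were counted apart. Of the related MRPS18 genes, MRPS18C was counted with the former and MRPS18A and MRPS18B with the latter. Of the 37 members with a bacterial counterpart, 29 were below 0 and the median was -0.10. Of the 22 specific to mitochondria, 17 were below 0 and the median was -0.06. By position, all 3 named proteins of the stalk that recruits translation factors were below 0, with a median of -0.20. Of the 6 proteins around the exit tunnel, where the new chain leaves, 4 were below 0 and the median was -0.07. Of the 5 named on the array in the central protuberance, which faces the small subunit, 4 were below 0 with a median of -0.03. Of the 7 named in the head of the small subunit, 5 were below 0 with a median of -0.04.

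MRPL1, a protein of the mobile arm by which spent transfer RNA leaves the large subunit, was the member with the smallest p. Its log2 signal was 5.72 at the lowest, 6.26 at the median and 6.55 at the highest in low RFI pigs, and 5.56, 5.90 and 6.05 in high RFI pigs. In low RFI pigs, 5 of 6 were higher than the mean of the other class, and pig P324 was not. The difference was 0.37 (SE 0.13, 95% interval 0.09 to 0.65, unadjusted p = 0.0125, q = 0.534 from limma). With the filter on SD of the methods, its q-value was 0.274, the only call among the 55 members that the filter kept, where 3.33% of the kept named genes were called. With the GC-rich background as a covariate, the difference was 0.15 (unadjusted p = 0.297).

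MRPS10, in the head of the small subunit, was the other member with a higher mean at an unadjusted p under 0.05. Its signal was 7.82 at the lowest, 7.95 at the median and 7.998 at the highest in low RFI pigs, and 7.42, 7.72 and 7.89 in high RFI pigs. All 6 low RFI pigs were higher than the mean of the other class, and pig P317 overlapped with them at 7.89. The difference was 0.23 (SE 0.09, unadjusted p = 0.0209, q = 0.546 from limma). Through its other probe sets it was 0.04 and -0.07, and over the mean of its probe sets 0.07 (unadjusted p = 0.648), so this value was that of 1 probe set. With the GC-rich background as a covariate it was 0.17 (unadjusted p = 0.154).

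MRPL12 and MRPL53 belong to the stalk of the large subunit, the site at which translation factors dock, and MRPL12 is also known to bind the mitochondrial RNA polymerase. MRPL12 had 6.05, 6.14 and 6.30 as lowest, median and highest signal in low RFI pigs, and 6.18, 6.39 and 6.50 in high RFI pigs. The difference was -0.20 (SE 0.09, unadjusted p = 0.0417, q = 0.589 from limma), and -0.09 (unadjusted p = 0.425) with the GC-rich background as a covariate. MRPL53 had 3.21, 3.30 and 3.57 in low RFI pigs, and 3.35, 3.58 and 4.05 in high RFI pigs. Its signal was thus close to the median of the array, and the difference was -0.30 (SE 0.12, unadjusted p = 0.0313, q = 0.577). In both genes, all 6 low RFI pigs lay below the mean of the other class. MRPL10, the base of this stalk, differed by -0.04.

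MRPS24, next to the entry channel of the messenger RNA, had a signal of 6.29 at the lowest, 6.45 at the median and 6.92 at the highest in low RFI pigs, and 6.58, 6.80 and 6.94 in high RFI pigs. Pigs P310 and P323, labelled low RFI, lay within the range of the other class at 6.64 and 6.92. The difference was -0.28 (SE 0.11, unadjusted p = 0.0281, q = 0.567 from limma), and -0.29 (unadjusted p = 0.0704) with the GC-rich background as a covariate. MRPS30, a protein specific to mitochondria, had 4.87, 5.31 and 5.65 in low RFI pigs, and 5.07, 5.80 and 5.97 in high RFI pigs. All 6 low RFI pigs were below the mean of the other class, in which pig P318 was lowest at 5.07. The difference was -0.37 (SE 0.17, unadjusted p = 0.0419, q = 0.589), and it lay between -0.49 and -0.29 when 1 pig was left out at a time. In these 12 fits of limma, an unadjusted p under 0.05 held in 4 for MRPS30 and in 5 for MRPL12. It held in 7 each for MRPS24 and MRPL53, in 11 for MRPS10 and in 12 for MRPL1.

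**Figure D3:**
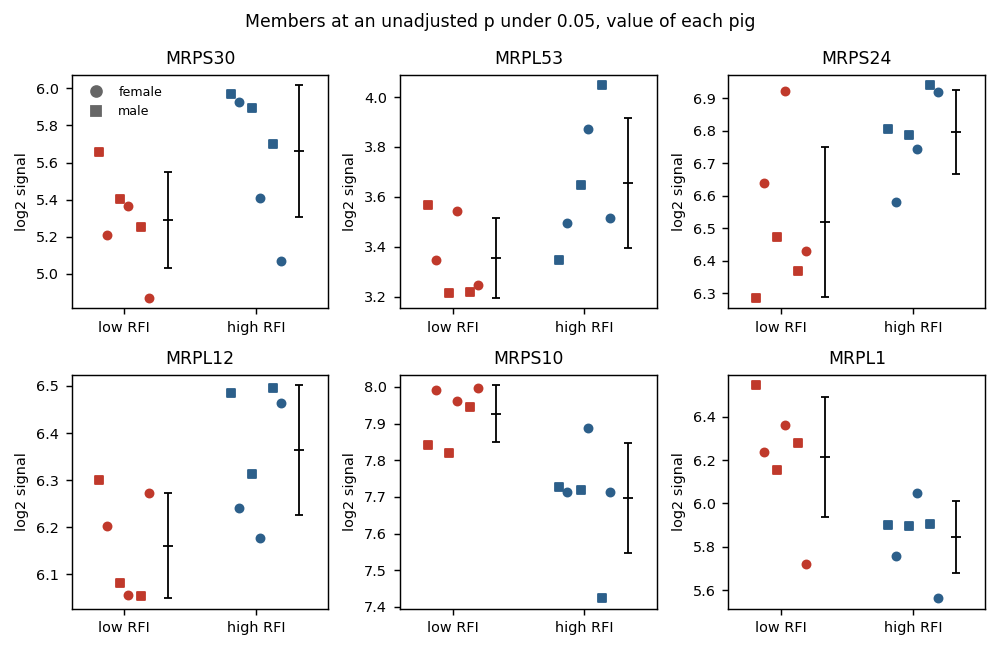
Log2 signal (y axis) of each pig by RFI class (x axis) for the 6 members at an unadjusted p under 0.05. Squares are males, circles females, and bars the mean ± SD of 6 pigs per class. MRPS30, MRPL53, MRPS24 and MRPL12 averaged lower and MRPS10 and MRPL1 higher in low RFI pigs, and in each gene the classes overlap.

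Without pig P317, 3 members were called at a q-value under 0.30, where 3.74% of all named genes were called. These were MRPL1 with a difference of 0.41 (q = 0.294), MRPS10 with 0.27 (q = 0.296) and MRPS34, a protein specific to mitochondria in the small subunit, with -0.37 (q = 0.204 from limma). With all pigs, MRPS34 had 7.14, 7.27 and 7.46 as lowest, median and highest signal in low RFI pigs, and 7.01, 7.63 and 7.77 in high RFI pigs. Pig P317 was the lowest of all at 7.01, and the difference was -0.27 (SE 0.13, unadjusted p = 0.0556). With the GC-rich background as a covariate and all pigs, it was -0.05 (unadjusted p = 0.724). Pig P317 also had the lowest GC-rich background of the high RFI pigs, at 6.49. The next lowest was 6.667 in pig P302, where the low RFI pigs lay between 6.47 and 6.669. Without pig P317, the classes thus hardly overlapped in background, and the part of background in these calls was not tested. Without this pig, 48 of the 59 genes were below 0, with medians of -0.05 in the large and -0.10 in the small subunit. The share of all named genes below 0 was not computed for this fit, so this count has no array share beside it. The members lower at an unadjusted p under 0.05 were 7 without pig P317, where 5.64% of all named genes were. They were 0 without the low RFI pig P309, a fit for which the array share was not computed.

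MRPL45, which tethers the large subunit to the inner membrane near the exit tunnel, was measured by a pair of probe sets that ran in opposite directions. It is also listed by the study, through SNOWBALL_026039 and with the sign opposite to the one given here. Through the brighter probe set, SNOWBALL_021986, its signal was 6.44 at the lowest, 6.55 at the median and 7.05 at the highest in low RFI pigs, and 6.31, 6.54 and 6.69 in high RFI pigs, a difference of 0.12 (SE 0.11, unadjusted p = 0.309). Through SNOWBALL_026039, it was 5.40, 6.11 and 6.55 in low RFI pigs, and 6.09, 6.61 and 6.71 in high RFI pigs. This difference was -0.50 (SE 0.17, unadjusted p = 0.00944, q = 0.519 from limma), and its q-value was 0.134 with the filter on SD, where 2.66% of the kept probe sets were called, 1.02% as lower. By sex, the difference through this probe set was -0.83 in females and -0.17 in males (unadjusted p = 0.0407 for the interaction from limma). In pig P310, labelled low RFI, the brighter probe set had its highest value of all pigs and the other its lowest. No gene-level direction could be given for MRPL45.

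Of the 15 members with several probe sets, some gave the same sign throughout and others did not. MRPL37, a protein specific to mitochondria, had 4 probe sets with differences of -0.10, -0.21, -0.27 and 0.04 from the brightest to the dimmest. The one at -0.27 had an unadjusted p = 0.0415 from limma. MRPL23, at the exit tunnel, had -0.31, -0.23 and 0.05, the second at an unadjusted p = 0.0179. MRPS26 had -0.18 through the brightest and -0.34 (unadjusted p = 0.0195) through the other. These 3 genes, named after their values were seen, were below 0 through their brightest probe set without reaching an unadjusted p under 0.05 there. Of the other genes, MRPL13, MRPL18, MRPL19, MRPL22, MRPS15 and MRPS18C were below 0 through each probe set. MRPL27, MRPL35, MRPL38 and MRPS18B, like MRPL45 and MRPS10, had probe sets of both signs.

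**Figure D4:**
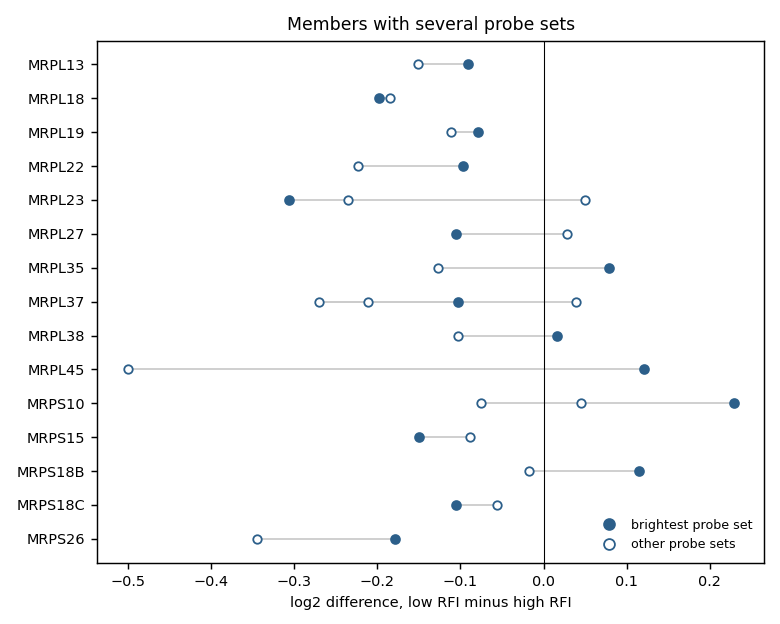
Log2 difference between the RFI classes (low RFI minus high RFI, x axis) through each probe set of the 15 members with several probe sets (y axis). Filled points are the brightest probe set of a gene and open points the others. MRPL45 shows the widest span, from -0.50 to 0.12.

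The brightest and the dimmest probe sets of each subunit were described as well, without setting one gene's signal against another's. Among the brightest of the large subunit, MRPL34 averaged 8.22 ± 0.24 (SD, n = 6) in low RFI pigs and 8.44 ± 0.30 (SD, n = 6) in high RFI pigs. MRPL37 averaged 7.997 ± 0.24 and MRPL17, at the exit tunnel, 7.46 ± 0.19 in low RFI pigs, against 8.10 ± 0.07 and 7.67 ± 0.41 in high RFI pigs. The 3 differences were -0.22, -0.10 and -0.21, with unadjusted p-values from 0.158 to 0.362. Single pigs moved them, as MRPL17 differed by -0.07 without pig P302, and MRPL37 by -0.19 without pig P308 and by -0.05 without pig P307. In MRPS9, whose bacterial counterpart reaches toward the transfer RNA in the peptidyl site, the means were 7.60 ± 0.19 in low RFI pigs and 7.66 ± 0.17 in high RFI pigs.

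Of the dimmest members, MRPL9 averaged 2.09 ± 0.18 (SD, n = 6) in low RFI pigs and 2.03 ± 0.24 (SD, n = 6) in high RFI pigs, a difference of 0.05 (unadjusted p = 0.670) that was 0.29 (unadjusted p = 0.0331) with the GC-rich background as a covariate. MRPL44, which has the fold of an RNA-cleaving enzyme, averaged 2.51 ± 0.39 and 2.26 ± 0.45, in the same order of classes, with a difference of 0.26 (SE 0.22), the widest error of all members. These 2 genes were the only members below the median of the array, and both were above 0. Of the other 57 members, 46 were below 0. The dimmest of the small subunit, MRPS18C, MRPS14 and MRPS6, differed by -0.11, 0.03 and -0.22, with unadjusted p-values of 0.192 or more.

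The sexes were balanced in each class and were compared with RFI class as a covariate. In limma, 0 of the 59 genes were called for sex at a q-value under 0.30, against 0.0397% of all probe sets. At an unadjusted p under 0.05, 1 was higher and 4 were lower in females, where 3.67% and 3.41% of all named genes were. These genes, named after their values were seen, were MRPL24 with a female minus male difference of 0.23, MRPL27 with -0.31, MRPL48 with -0.29, MRPS2 with -0.28 and MRPS30 with -0.34. In MRPL27, a protein near the site of peptide bond formation, females averaged 6.13 and males 6.44 (unadjusted p = 0.0105, q = 0.670).

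The class difference was below 0 in most members in either sex. In females, 42 of the 59 genes were below 0 with a median of -0.06, and in males 40 with a median of -0.06. Of all 13755 named genes, 7117 were below 0 in females with a median of -0.0075, and 7575 in males with a median of -0.03. For the interaction of sex and RFI class, 0 members were called at a q-value under 0.30, and 3 were past an unadjusted p under 0.05, as were 4.25% of all named genes. They were MRPL39, MRPL41 and MRPS25, named after their values were seen. MRPL41 differed by 0.17 in females and by -0.39 in males. MRPL39 differed by -0.38 and 0.17, and MRPS25 by -0.28 and 0.10, in the same order of sexes.

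Other genes of mitochondrial translation were counted in the same way. Of the 5 ribosomal proteins with other names on the array, 3 were below 0, and AURKAIP1, a protein of the small subunit, was lower at an unadjusted p = 0.0123 with a difference of -0.26. Of 32 listed assembly factors, 13 were named on the array. Of these, 5 were below 0 with a median of 0.09, and 1 was higher at an unadjusted p under 0.05. This was ERAL1, a chaperone of the ribosomal RNA of the small subunit, with 5.97 ± 0.20 (SD, n = 6) in low RFI pigs and 5.55 ± 0.33 (SD, n = 6) in high RFI pigs, a difference of 0.42 (SE 0.15, q = 0.534 from limma). Of 17 listed translation factors and helpers, 13 were named on the array. Of these, 6 were below 0 with a median of 0.04, and 2 were higher at an unadjusted p under 0.05. LRPPRC, which stabilizes mitochondrial messenger RNAs, differed by 0.38 and the release factor MTRF1L by 0.27, both by the labels. The study lists LRPPRC through another probe set, with the opposite sign. It also lists MTRF1L, with the same sign as the one given here. The probe sets listed by the study have the opposite sign under the labels, so the value given here would be that of another probe set. No gene-level direction could therefore be given for MTRF1L.

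Of the 5 named genes that copy and transcribe the mitochondrial genome, 0 were below 0, with a median of 0.07, and 0 reached an unadjusted p under 0.05. Of 8 regulators of mitochondrial genes, 3 were below 0. The coactivator PPARGC1A, which drives mitochondrial biogenesis, averaged 6.26 ± 0.41 (SD, n = 6) in low RFI pigs and 5.37 ± 0.52 (SD, n = 6) in high RFI pigs, a difference of 0.89 (SE 0.24, unadjusted p = 0.00211, q = 0.443 from limma). NRF1 and GABPA, transcription factors known to act on many of these genes, differed by -0.04 and 0.18.

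The respiratory chain and the cytosolic ribosome were set beside the members as the groups most like them. Of 53 genes of the respiratory chain and the ATP synthase, 35 were below 0 (66.0%) with a median of -0.06, and 1 was higher and 4 were lower at an unadjusted p under 0.05. Among these, COX6B, a subunit of cytochrome c oxidase, differed by -0.30, and the complex I subunits NDUFV3 and NDUFS1 by -0.34 and 0.24. Of 62 cytosolic ribosomal protein genes, 24 were below 0 (38.7%) with a median of 0.01, and 3 were higher and 0 lower at an unadjusted p under 0.05 in limma. The 3 were RPS25 with a difference of 0.40, RPS4 with 0.27 and RPL5 with 0.19. RPS25 is listed by the study with the sign opposite to the one given here, and no test was made between these groups.

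**Figure D5:**
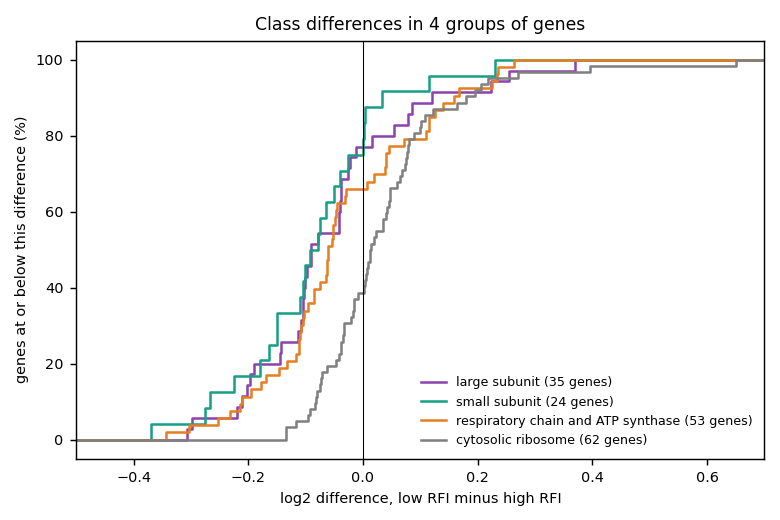
Share of genes (y axis, %) at or below a given log2 difference between the RFI classes (low RFI minus high RFI, x axis), for the large and small mitochondrial subunits, the respiratory chain with the ATP synthase, and the cytosolic ribosome. At a difference of 0, the line of the large subunit stands at 77.1% and that of the small subunit at 79.2%, that of the respiratory chain at 66.0% and that of the cytosolic ribosome at 38.7%.

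The members also varied together to a small degree. Within classes, the median correlation between pairs of members across the 12 pigs was 0.09, where it was 0.0019 between all named genes, 0.15 within the respiratory chain and 0.22 within the cytosolic ribosome. These values are a description, since all pairs share arrays and their normalization. MRPS11 and MRPL46 are neighbors in the pig reference annotation, the only such pair among the members, and differed by -0.11 and -0.03.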

How the data were processed

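Total RNA from liver was measured on Affymetrix snowball arrays, 1 per pig. The authors processed the arrays by RMA, and the deposited values are log2 signals of 47845 probe sets. The submitters' processing notes name GCOS 1.1.1. Symbols came from the platform annotation, in which 26426 probe sets carry a single symbol and 21419 are unnamed here. Groups and sexes were taken from the labels, reading w as female. Arrays have no read depth, and the number of pigs limits the precision.

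The model in limma 3.58.1 (R 4.3.3) held RFI class alone, as in the methods, over all probe sets. Storey q-values were taken over all probe sets with a threshold of 0.30. An unadjusted p under 0.05 served as a further count. Sex was tested with class as a covariate, and the interaction in a model of both. The p-values set a difference against the spread between these pigs, with information on variance shared over all probe sets. The filter of the methods removes the lowest 10% of SD over all pigs and the highest 10% within a class, and it was an alternative here, as were scaling, array weights, variance model, dim probe sets, GC background, sex, mean over probe sets and leaving out each pig. The procedure was tested on simulated data.

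Named were members past the q-value, those at an unadjusted p under 0.05, the 3 brightest and 3 dimmest of each subunit, MRPL45, and up to 3 genes by smallest p from each other list. Members and lists were chosen with earlier results of these data known. No sequences are shown, as no sequence table was used here.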

Additional observations from a re-analysis of the deposited data

Results flagged for a closer look

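In 148 sets of 6 pigs of 1 class, a single pig stood apart from the others in 7 by Dixon's criterion, which chance meets in about 1 of 20 sets. Among members, pig P307, labelled low RFI, had the highest signal of its class in MRPS14 with 5.79 and in MRPS35 with 6.26. Of pigs labelled high RFI, P318 was lowest in MRPL3 with 6.48, P302 was lowest in MRPL22 with 7.24, and P317 was highest in MRPS22 with 7.48. Pig P301, labelled high RFI, was lowest in the dimmer probe set of MRPL45 with 6.09. In the complex I gene NDUFS1, pig P302, labelled high RFI, was lowest with 6.38.

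The class difference differed between females and males at an unadjusted p under 0.05 in 3 members, with interactions of 0.56 in MRPL41, -0.39 in MRPS25 and -0.55 in MRPL39. None of them was called at a q-value under 0.30 in limma, and each sex held 3 pigs per class.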

How the results depend on the processing

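No paired analysis was possible because the labels give neither litters nor replicate numbers shared between the classes. The number of members with a difference below 0 lay between 40 and 49 over 12 alternatives and between 38 and 49 when 1 pig was left out, and the medians lay between -0.10 and -0.03 in the large and between -0.09 and -0.06 in the small subunit (-0.09 to -0.05 and -0.12 to -0.05 with 1 pig left out). The counts of single genes were less stable. Members called at a q-value under 0.30 were 1 with the SD filter, and 0 to 3 with 1 pig left out, 3 without P317. Members higher at an unadjusted p under 0.05 were 1 with the SD filter, 1 with the GC background, 1 with the mean over probe sets, 1 in males and 0 in females, and 2 to 3 with 1 pig left out. Members lower were 7 with the mean over probe sets and 0 in females, and 0 to 7 with 1 pig left out, namely 0 without P309, 1 without P324, 2 without P303, P318 or P323 and 7 without P317. For sex, members higher in females were 0 with the SD filter and 0 to 1 with 1 pig left out, and members lower in females 1 to 6. Shares of all named genes at this p were not computed for these alternatives, except as lower without P317. The other counts thus have no array share beside them. The sign turned in MRPL9 in females only (-0.0013) and with 1 pig left out (-0.00597 to 0.11), in MRPS9 with the GC background (0.0634), in MRPS14 with array weights (-0.0144), the GC background (-0.0814) and 1 pig left out (-0.0936 to 0.0937), and in MRPL45 with the mean over probe sets (-0.19). The cause was not tested.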
